A study of Mus musculus with 4 samples.

Results

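Integrins and the adaptor proteins of focal adhesions were examined in tail tip fibroblasts (TTFs) by RNA-seq. The set held 44 genes, 18 integrin chains and 26 intracellular adaptors, picked by gene symbol from the 23924 genes of the expression matrix. TG cells came from male mice of strain C57BL/6J-TgBAC8-2087 that were hemizygous for the transgene (Tg2087/+), and WT cells from +/+ male littermates. Their transgene, TgBAC8, is a stretch of the X-inactivation center that includes *Xist* and sits on an autosome. Cells of both genotypes were immortalized with SV40 large T and were tetraploid. There were 2 WT and 2 TG libraries. The sources used here do not say whether libraries of the same genotype stem from different mice or cultures, so the p-values measure the spread between these libraries, which may be technical, and the genotype cannot be told apart from the cell line that carries it. The age of the mice is not given there either.

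Integrins are receptors made of an alpha and a beta chain that span the membrane and bind matrix proteins outside the cell. The pair determines the ligand: some alpha chains bind collagen, some laminin, and others the RGD motif of fibronectin and vitronectin. On the inner side talins and kindlins bind the beta tail and activate the receptor. Tensins, vinculin, filamins and alpha-actinins link it to actin, while the kinases FAK and Src, the ILK-PINCH-parvin complex and scaffolds such as paxillin assemble around it. Fibroblasts use these contacts to hold and pull on the matrix.

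Expression is given in FPKM, in which fragments are divided by gene length and library size, so that levels can be compared between genes of different length. The library totals behind the FPKM values, worked out from steps in those values, were between 9465712 and 14639946 reads. The total of WT 2 was 1.55 times that of WT 1. These totals may differ from the number of reads sequenced. *Xist*, the RNA of the transgene, was at 0 and 0.108 FPKM in WT and at 2.31 and 2.28 in TG, so that both TG libraries were above both WT libraries. Of 12 fibroblast markers, 9 passed the filter on low values, with *Vim* between 2147 and 2547 FPKM, and *Dcn*, *Lum* and *Fap* were at or near 0 (at most 0.878 FPKM). Of these 9, 7 had a negative log2 fold change in TG (median of the 9, -0.32) and 2 fell: *Col1a1*, and *Pdgfrb* from 56.8 and 57.3 FPKM to 31.7 and 26.8. The other 2, *Vim* and *Pdgfra*, were higher in both TG libraries and did not pass. *Pdgfra* was at 0.0999 and 0.307 FPKM in WT and at 0.823 and 1.13 in TG. The 12 fibroblast markers summed to 6694 and 6082 FPKM in WT and to 6199 and 5759 in TG, with overlapping genotypes. *Vim* and *S100a4* were the largest parts of this sum. Among the 9 tested, both TG libraries lay below both WT libraries in 5 and above them in 2. The shares of all genes tested were 20.3% and 30.2%. Defining markers of other cell types were nearly absent: the summed level was at most 0.718 FPKM for 6 epithelial, 0.567 for 5 endothelial, 0.054 for 5 skeletal muscle and 0.689 for 4 Schwann cell markers, and *Ptprc* of immune cells was at 0 in every library while *Cd68* stood between 5.12 and 12.1. The 8 smooth muscle markers summed to 10036 and 10255 FPKM in WT and to 4724 and 5380 in TG, and 4 of the 6 tested fell (*Cnn1*, *Lmod1*, *Acta2* and *Myl9*), with *Myh11* and *Des* at most 0.435 FPKM. *Col1a1*, *Pdgfrb* and these 4 smooth muscle markers were lower in TG, the direction of the falls described here. Their part in those falls was not tested. With 2 libraries a genotype, a shared direction does not show that genes vary together. Fewer cells of a type and less RNA per cell cannot be told apart in these bulk samples.

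Among the 44 genes, 6 fell in TG and 29 did not pass the test, while 8 were too low to be tested. The falls were those of the collagen receptor chain *Itga11*, the vitronectin receptor chain *Itgb3*, *Tns1*, both talin genes and the PINCH gene *Lims2*. The remaining gene, the leukocyte chain *Itgb7*, was called higher, but it entered the test only through its TG values. The test was limma on log2(FPKM + 0.5) over 11524 genes with a mean of at least 0.5 FPKM, with Benjamini-Hochberg adjustment and a threshold of 0.05. Over all genes tested it called 1.54% lower and 2.59% higher in TG. All 44 genes were listed, and 36 passed the filter: 10 of 18 integrin chains and 26 of 26 adaptors. The median log2 fold change was -0.09 for the 10 integrin chains and -0.16 for the adaptors, against 0.07 for all genes tested. With the stricter thresholds used in the study, which ask for an adjusted p under 0.01 and a change of 1 or more on the log2 scale in either direction, 5 of the 36 were lower and 0 higher (0.469% and 0.607% of all genes tested). By range alone, both TG libraries lay below both WT libraries for 17 of the 36 genes and above them for 10, where the shares of all genes tested were 20.3% and 30.2%. The smallest p that an exact permutation test allows for 2 against 2 libraries is 0.333, so no such test is reported.

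**Figure D1:**
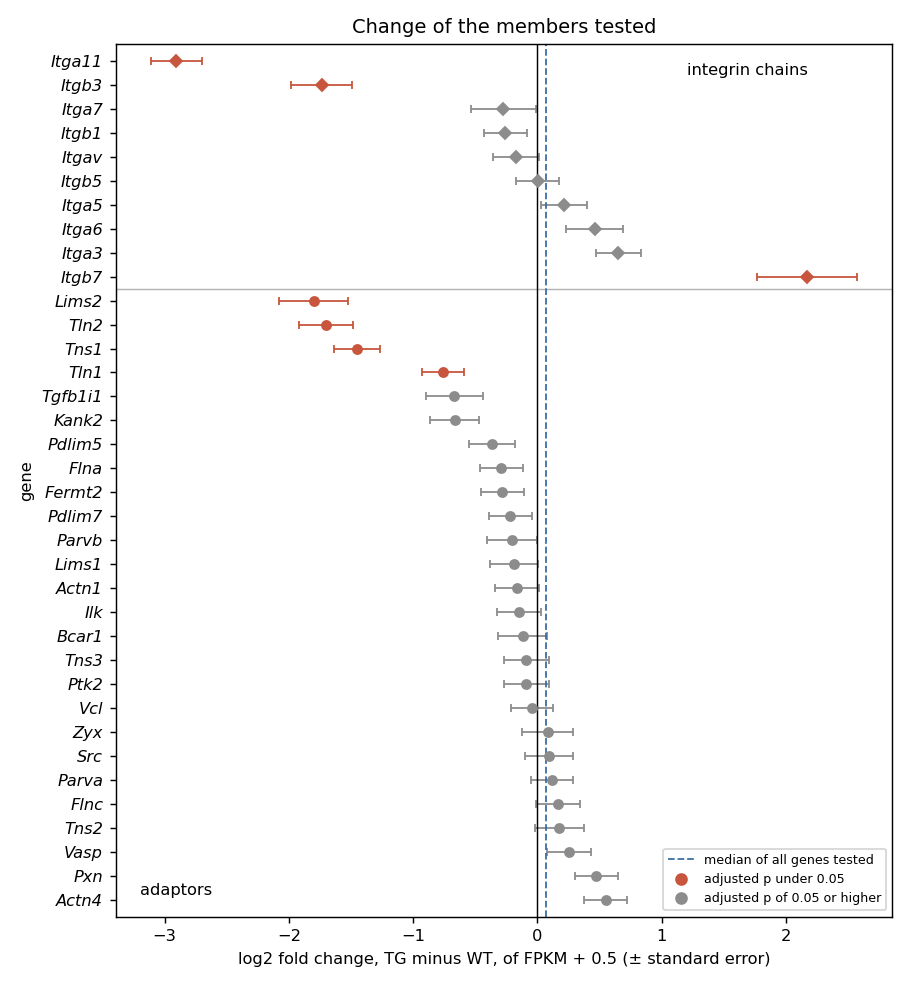
Log2 fold change of TG against WT, on the log2(FPKM + 0.5) scale, for the 10 integrin chains (diamonds, upper block) and 26 adaptors (circles, lower block) tested, with the standard error of limma as bars. Red symbols passed an adjusted p of 0.05, and the dashed line is the median of all genes tested, 0.07. *Itga11* lies farthest to the left at -2.90 and *Itgb7* farthest to the right at 2.17, while the 29 grey genes lie between -0.67 and 0.65.

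Collagen-binding alpha chains were examined first. *Itga11*, the alpha11 chain that pairs with beta1 and binds fibrillar collagen, was the collagen receptor chain with the highest level in these cells. It is on chr9:62677855-62783979 (GRCm38, plus strand). It was at 28.1 and 30.8 FPKM in WT and at 3.66 and 3.34 in TG, from 1275, 2159, 209 and 177 reads. Both TG libraries were far below both WT libraries and close to each other. Mean expression was reduced by 88.1%, from 29.5 ± 1.89 (SD, n = 2) to 3.50 ± 0.226 FPKM (log2 fold change -2.90, standard error 0.20, limma adjusted p = 7.8e-05). The adjusted p stayed under 0.05 in each of the 13 alternatives run, with 0.0203 as the highest. The other collagen-binding chains were below the filter. *Itga1* was at 0.453 and 0.422 FPKM in WT and at 0.216 and 0.140 in TG, from 122 WT and 48 TG reads. This was a depth-corrected ratio of 0.413 (95% interval 0.289 to 0.581, counting error only). *Pelo* overlaps *Itga1* on the same strand, at 37.9 and 38.0 FPKM in WT and 43.1 and 36.3 in TG. Its part in the *Itga1* reads was not tested. *Itga10* ranged from 0.293 to 0.721 FPKM and *Itga2* from 0 to 0.0607, with overlapping genotypes in both. The same ratio was above 1 for *Itga10*, at 1.57 from 44 WT and 66 TG reads (95% interval 1.06 to 2.36, counting error only). The 4 collagen-binding chains summed to 29.1 and 31.5 FPKM in WT and to 4.34 and 4.20 in TG.

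The alpha chain pool shifted in composition more than in size. The 12 alpha chains summed to 128 and 127 FPKM in WT and to 116 in each TG library. *Itga11* made up 22.0% and 24.3% of that sum in WT and 3.16% and 2.88% in TG. *Itga3* and *Itga5* held larger shares in TG: 14.5% and 14.8% in WT against 25.2% and 25.9% in TG for *Itga3*, and 32.1% and 26.8% against 38.6% and 36.4% for *Itga5*. Shares of a sum depend on one another, so these are given as a description with no test.

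**Figure D2:**
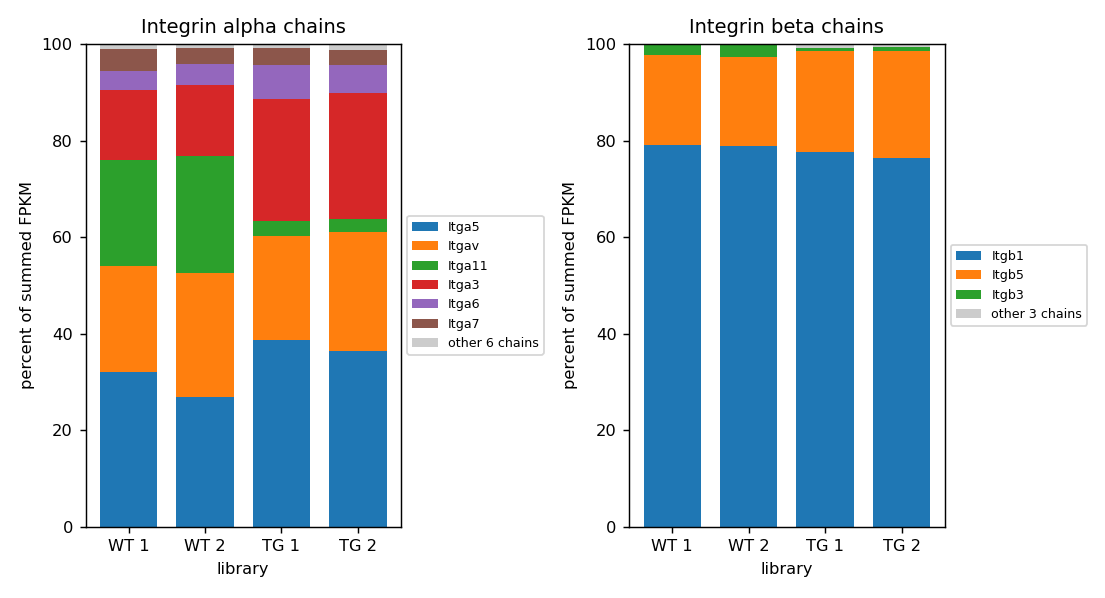
Percent of the summed FPKM of 12 alpha chains (left) and 6 beta chains (right) in each library. *Itga11* takes 22.0% and 24.3% of the alpha sum in WT and about 3% in TG (3.16% and 2.88%), while *Itgb1* takes between 76.3% and 79.1% of the beta sum in all 4 libraries.

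The laminin-binding chains, *Itga3*, *Itga6* and *Itga7*, were all tested and none passed. *Itga3*, the alpha3 chain, was at 18.6 and 18.8 FPKM in WT and at 29.2 and 30.05 in TG. The TG libraries were above the WT libraries with little spread in either genotype, yet the log2 fold change of 0.65 (standard error 0.18) had a limma adjusted p of 0.0755. On the reads recovered from the FPKM values, limma's voom method gave 0.60 and an adjusted p of 0.0377. *Itga6*, part of the laminin receptors of epithelial and other cells, stood at 4.90 and 5.48 FPKM in WT and at 8.002 and 6.70 in TG (log2 fold change 0.46, adjusted p = 0.304). *Itga7*, the chain of muscle laminin receptors, overlapped between genotypes, with 5.78 and 4.13 FPKM in WT and 4.15 and 3.77 in TG.

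Of the RGD-binding alpha chains, *Itga5* of the fibronectin receptor had the highest level of all alpha chains in both genotypes. It was at 41.0 and 34.1 FPKM in WT and at 44.7 and 42.2 in TG, and it did not pass the test (log2 fold change 0.21, limma adjusted p = 0.578). *Itgav*, which pairs with several beta chains to bind vitronectin and osteopontin, was at 27.9 and 32.6 FPKM in WT and at 25.1 and 28.5 in TG, and the genotypes overlapped. In WT, *Itgav* and *Itga11* were neighbours in level and overlapped, whereas in TG *Itga11* had dropped to the level of *Itgb3*. *Itga8* was at or below 0.127 FPKM, and *Itga4* and *Itga9*, which form their own family, were at or below 0.0917 and 0.404 FPKM, all below the filter.

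Beta chains were led by *Itgb1*, the partner of most alpha chains listed here, at 414 and 374 FPKM in WT and 331 and 326 in TG. Both TG libraries were below both WT libraries, by less than the test could separate (log2 fold change -0.26, standard error 0.17, limma adjusted p = 0.464). *Itgb5*, a vitronectin receptor chain, had the same mean of 92.3 FPKM in both genotypes, from 97.6 and 87.0 in WT and 89.5 and 95.1 in TG. *Itgb3*, which pairs with *Itgav* in the vitronectin and osteopontin receptor, did fall. It lies on chr11:104608000-104670476 (plus strand), and was at 11.3 and 12.6 FPKM in WT and at 2.68 and 3.87 in TG, from 600, 1040, 180 and 241 reads. The genotypes were well separated, and mean expression was reduced by 72.6% (log2 fold change -1.74, standard error 0.24, limma adjusted p = 0.00435). The adjusted p was 0.0590 without WT 1 and 0.114 without WT 2. Its ratio to *Itgav* was 0.403 and 0.387 in WT and 0.107 and 0.136 in TG.

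*Itgb7*, a chain of leukocyte integrins on chr15:102215994-102233405 (minus strand), was the single member called higher. It was at 0.0418 and 0.189 FPKM in WT and at 2.56 and 1.97 in TG, from 1, 7, 77 and 55 reads. WT libraries were near the limit of detection, and the gene passed the filter on low values only through TG, so that its call is no independent support for a rise. As a description, the log2 fold change was 2.17 (standard error 0.40, limma adjusted p = 0.0159), and the depth-corrected ratio of reads was 17.3 (95% interval 8.53 to 40.9, counting error only). Without WT 1 the adjusted p was 0.0876, and without WT 2 it was 0.110. Its known partners were scarce: *Itga4* had at most 13 reads in a library and *Itgae* at most 14. *Itgb4* and *Itgb8* were below the filter, at or below 0.204 and 0.626 FPKM.

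**Figure D3:**
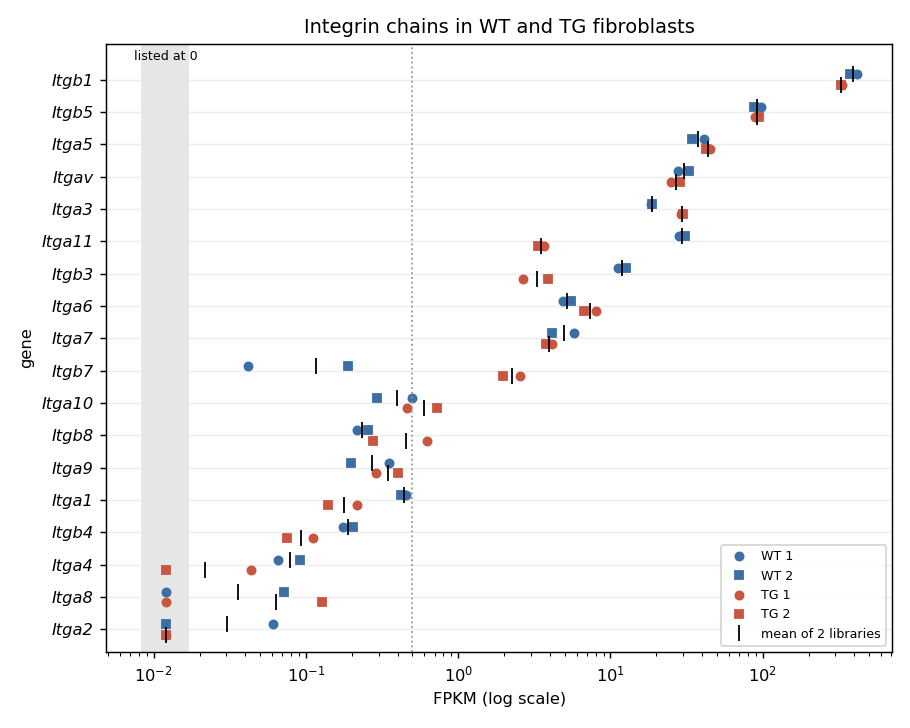
FPKM (log scale) of the 18 integrin chains in each library, WT in blue and TG in red, with ticks at the mean of 2 libraries. The dotted line is the filter of 0.5 and the grey band holds values listed at 0. *Itgb1* is highest in every library (326 to 414 FPKM), and 8 chains lie around or below the filter. *Itga11* and *Itgb3* have separate WT and TG points, as do other chains. Among the 10 tested, both TG libraries lay below both WT libraries in 3 and above them in 4. The shares of all genes tested were 20.3% and 30.2%.

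Tensins bind the beta tail and the actin filament and mark mature, fibrillar adhesions. *Tns1*, on chr1:73910232-74124548 (minus strand), was at 38.2 and 42.9 FPKM in WT and at 14.1 and 14.9 in TG. The genotypes were far apart relative to the spread within each, with a reduction of 64.3% (log2 fold change -1.45, standard error 0.18, limma adjusted p = 0.0022, 0.0651 without WT 2). *Tns3*, by contrast in level, was at 25.7 and 27.1 FPKM in WT and at 24.6 and 25.1 in TG (log2 fold change -0.09), and *Tns2* at 10.8 and 11.8 in WT and 13.3 and 12.3 in TG (0.18), neither passing the test. *Tns1* thus held 51.1% and 52.5% of the summed tensin FPKM in WT, where it was the leading tensin, and 27.1% and 28.5% in TG, where *Tns3* led.

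Promoter windows, from 250 bases before to 50 bases after a transcript start, are shown for 3 members, since *Tns1*, *Itga11* and *Itgb7* had the largest log2 fold changes in size among the called genes with a window. The *Itgb7* window lies at a start inside the span given above for that gene, and the others at the start of theirs. RefSeq windows (GRCm38.p6) were held for 4 of the 7 called genes, the fourth being *Tln1*, and for 34 of the 44 members (41 windows). Capitals mark the GC box, GGGCGG on either strand, and there are no capitals where none was found.
Tns1, chr1:74124499-74124798, minus strand: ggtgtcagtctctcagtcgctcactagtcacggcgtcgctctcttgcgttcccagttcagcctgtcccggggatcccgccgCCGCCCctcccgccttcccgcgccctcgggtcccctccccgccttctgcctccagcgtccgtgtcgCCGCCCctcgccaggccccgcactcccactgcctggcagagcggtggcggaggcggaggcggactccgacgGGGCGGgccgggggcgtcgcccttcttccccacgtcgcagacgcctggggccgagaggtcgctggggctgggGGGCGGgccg
Itga11, chr9:62677605-62677904, plus strand: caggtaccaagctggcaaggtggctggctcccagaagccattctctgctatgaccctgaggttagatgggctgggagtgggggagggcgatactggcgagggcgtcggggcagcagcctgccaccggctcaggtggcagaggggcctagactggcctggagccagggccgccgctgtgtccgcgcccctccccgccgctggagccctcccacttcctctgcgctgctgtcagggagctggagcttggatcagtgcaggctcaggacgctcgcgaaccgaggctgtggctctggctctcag
Itgb7, chr15:102231886-102232185, minus strand: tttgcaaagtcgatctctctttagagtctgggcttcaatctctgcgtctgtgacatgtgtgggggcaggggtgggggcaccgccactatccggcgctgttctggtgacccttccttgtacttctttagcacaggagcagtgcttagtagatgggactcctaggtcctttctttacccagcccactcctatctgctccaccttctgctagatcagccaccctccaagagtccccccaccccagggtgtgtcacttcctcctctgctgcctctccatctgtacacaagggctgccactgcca
The *Tns1* window had 4 GC boxes and a GC content of 75.7%, against 68% for *Itga11* and 56.3% for *Itgb7*, which had none. GC boxes were in 27 of the 41 member windows and in 35.7% of all 32851 windows. Also searched on both strands were the CArG box of serum response factor (2 of 41 member windows, 1.63% of all), GGAATG of TEAD factors (7 of 41, 14.7%) and TGANTCA of AP-1 (4 of 41, 7.81%). None of these other motifs was in the windows of the 4 called genes. A match is a run of letters and not a bound site.

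Talins open the integrin for ligand and are the main mechanical link to actin. *Tln2*, on chr9:67217085-67634045 (minus strand), was at 12.9 and 13.9 FPKM in WT and at 3.70 and 3.85 in TG. The values within a genotype were nearly equal, and the reduction was 71.9% (log2 fold change -1.70, standard error 0.22, limma adjusted p = 0.0022, 0.0512 without WT 1 and 0.0859 without WT 2). *Tln1*, the more abundant talin, on chr4:43531513-43562583 (minus strand), was at 116 and 123 FPKM in WT and at 70.6 and 69.8 in TG. This was a reduction of 41.2% with no overlap of the genotypes (log2 fold change -0.76, standard error 0.17, limma adjusted p = 0.0318). The call of *Tln1* was the least stable of the 7: its adjusted p ranged from 0.0906 to 0.195 with any 1 of the 4 libraries left out, and was 0.120 without the variance trend. *Tln1* overlaps *Creb3* on the opposite strand, and the strand setting of the counting is not given in the sources used here. *Creb3* was at 56.7 and 39.1 FPKM in WT and at 49.0 and 58.0 in TG. The same limit holds for *Vcl*, *Zyx*, *Ilk* and *Parva*, which also overlap genes on the opposite strand and did not pass. The 2 talin genes summed to 129 and 137 FPKM in WT and to 74.3 and 73.7 in TG, and the ratio of *Tln2* to *Tln1* was 0.111 and 0.113 in WT and 0.0525 and 0.0552 in TG.

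The other activators and actin linkers did not pass the test. *Fermt2*, the kindlin that activates integrins together with talin, was at 84.1 and 92.4 FPKM in WT and at 73.9 and 70.9 in TG (log2 fold change -0.28). Vinculin, which binds stretched talin, overlapped between genotypes, with *Vcl* at 144 and 130 FPKM in WT and 137 and 128 in TG. *Kank2*, a talin-binding protein at the rim of adhesions, was at 26.5 and 27.0 FPKM in WT and at 14.7 and 18.9 in TG. Its log2 fold change of -0.67 had a limma adjusted p of 0.0931, and of 0.0125 by voom, which called 4.38% of all genes lower and 3.57% higher.

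Filamins and alpha-actinins crosslink actin. *Flna*, an X-linked gene, was at 451 and 425 FPKM in WT and at 371 and 346 in TG (log2 fold change -0.29, limma adjusted p = 0.404), and *Flnc* was at 37.0 and 32.2 in WT and 38.2 and 39.3 in TG. *Actn1* was at 381 and 422 FPKM in WT and at 374 and 341 in TG (log2 fold change -0.17). *Actn4* was at 217 and 199 FPKM in WT and at 291 and 318 in TG, and the log2 fold change was 0.55 (adjusted p = 0.114 by limma and 0.0495 by voom). Both *Actn4* values of TG were above both of WT, and the ratio of *Actn4* to *Actn1* was 0.569 and 0.471 in WT and 0.776 and 0.932 in TG.

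The ILK-PINCH-parvin complex sits on the beta tail and passes signals and force to actin. *Ilk* was among the 3 adaptors with the highest mean level, at 418 and 458 FPKM in WT and 382 and 407 in TG (log2 fold change -0.15). The PINCH genes differed from each other. *Lims2*, on Chr 18, was at 10.4 and 9.05 FPKM in WT and at 3.21 and 1.81 in TG, from 172, 232, 67 and 35 reads. The genotypes did not overlap, although the TG libraries were unequal, and the reduction was 74.2% (log2 fold change -1.80, standard error 0.28, limma adjusted p = 0.0067, 0.0916 without WT 1 and 0.116 without WT 2). *Lims1* was at 16.0 and 17.6 FPKM in WT and at 15.1 and 14.3 in TG (log2 fold change -0.19), so that *Lims2* made up 39.3% and 34.0% of PINCH FPKM in WT and 17.5% and 11.2% in TG. The parvins did not pass: *Parva* stood between 64.0 and 72.2 FPKM and *Parvb* between 12.7 and 17.1.

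Of the kinases and scaffolds outside that complex, none passed the test. *Ptk2*, which encodes FAK, was at 33.3 and 30.4 FPKM in WT and at 28.9 and 30.9 in TG, and *Src* at 42.1 and 44.6 in WT and 52.6 and 40.6 in TG. *Bcar1*, the scaffold p130Cas, ranged from 85.0 to 117 FPKM. The genotypes overlapped in these 3 genes. *Pxn*, the scaffold paxillin, was higher in both TG libraries, at 69.2 and 63.0 FPKM against 45.7 and 49.1 in WT, and did not pass the test (log2 fold change 0.47, limma adjusted p = 0.164). *Tgfb1i1*, the paxillin relative Hic-5, differed between the WT libraries, at 91.1 and 148 FPKM, against 79.4 and 67.0 in TG. Its log2 fold change of -0.67 had an adjusted p of 0.144 by limma and 0.0106 by voom.

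Among the actin regulators, *Zyx* was at 185 and 249 FPKM in WT and at 254 and 203 in TG, with overlapping genotypes. *Vasp*, which speeds the growth of actin filaments, was at 115 and 112 FPKM in WT and at 126 and 146 in TG (log2 fold change 0.25, limma adjusted p = 0.469). The PDZ-LIM proteins were lower in both TG libraries without passing the test: *Pdlim5* was at 23.9 and 25.0 FPKM in WT and at 19.2 and 18.6 in TG (-0.36), and *Pdlim7* at 179 and 204 in WT and 174 and 155 in TG (-0.22). None of the 4 genes of this kind was called in either direction.

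**Figure D4:**
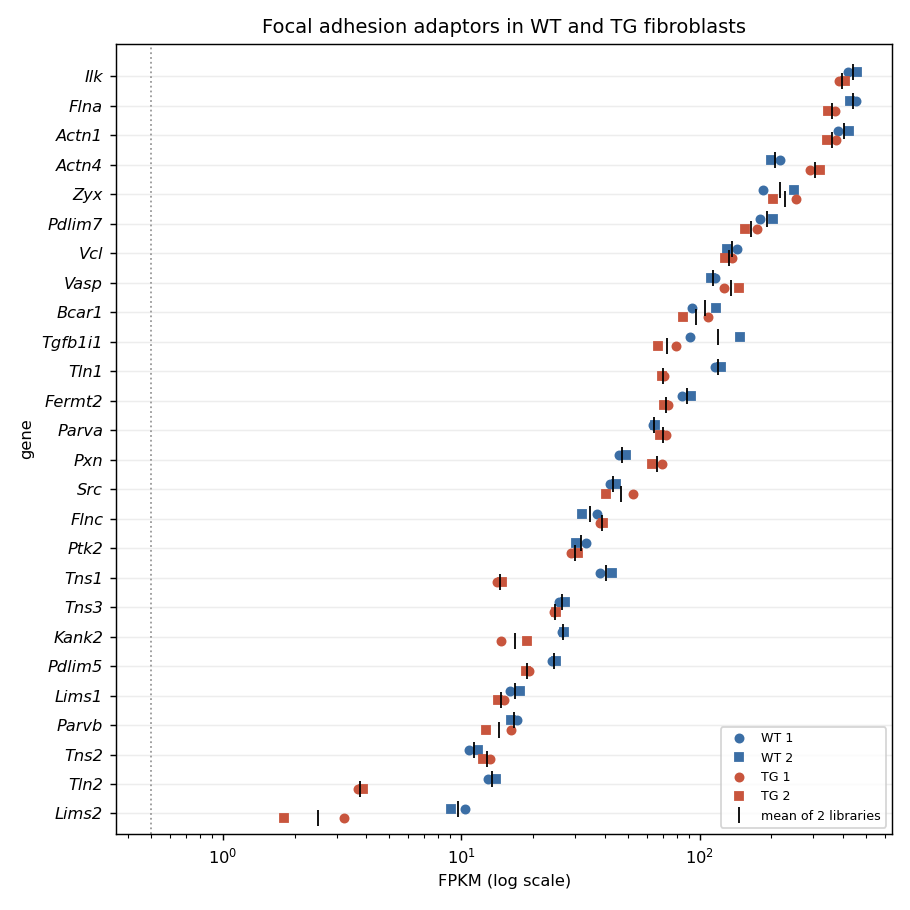
FPKM (log scale) of the 26 adaptors in each library, WT in blue and TG in red, with ticks at the mean of 2 libraries. *Flna*, *Ilk* and *Actn1* are at the top between 341 and 458 FPKM. The 4 adaptors called lower, *Tns1*, *Tln2*, *Tln1* and *Lims2*, have separate WT and TG points, as do most others. Both TG libraries lay below both WT libraries in 14 of the 26 and above them in 6. The shares of all genes tested were 20.3% and 30.2%.

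Among the members that did not pass, log2 fold changes ranged from -0.67 to 0.65. Both TG libraries were below both WT libraries for 11 of these 29 genes and above them for 9. Over all genes tested, the shares were 20.3% below and 30.2% above. In WT the order of the leading integrin chains was *Itgb1*, *Itgb5* and *Itga5*, each above the next without overlap. The leading adaptors in WT were *Flna*, *Ilk* and *Actn1*: *Ilk* overlapped with both others, and *Flna* lay above *Actn1*. In TG, *Ilk* lay above *Flna* and *Actn1*, and these overlapped. The falls lay on Chr 9 (*Itga11* and *Tln2*), Chr 1 (*Tns1*), Chr 4 (*Tln1*), Chr 11 (*Itgb3*) and Chr 18 (*Lims2*). *Kank2*, the third tested member on Chr 9, did not pass, and *Tns1* was the single member on Chr 1. The share of all tested genes called on each chromosome was not computed, so these places are a description only.

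**Figure D5:**
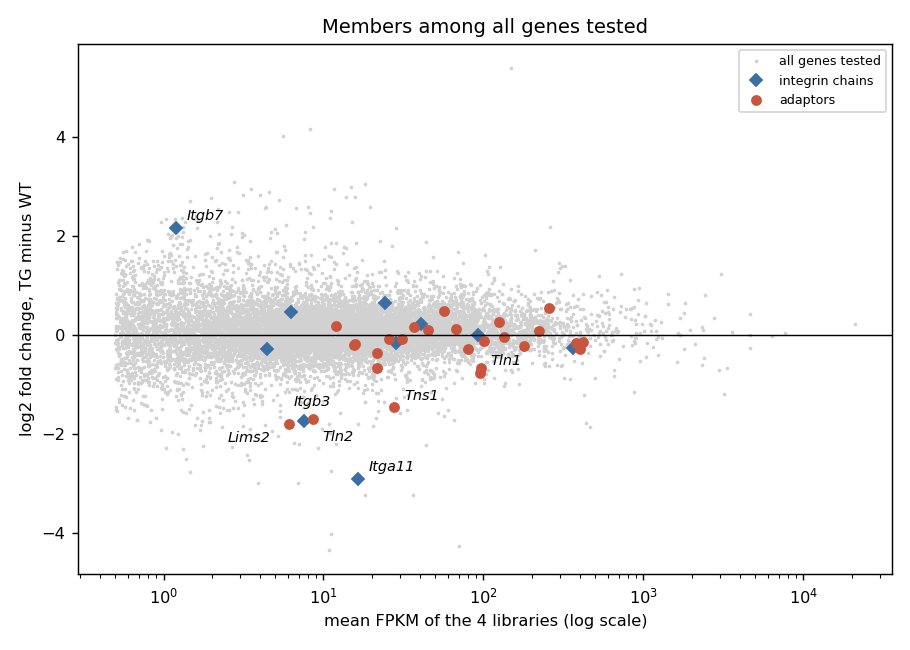
Log2 fold change of TG against WT against the mean FPKM of 4 libraries (log scale) for 11524 genes tested (grey), with 10 integrin chains (blue diamonds) and 26 adaptors (red circles). The 7 labelled genes passed an adjusted p of 0.05, and most other members lie at high expression close to 0.

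The wider adhesion machinery was described by a list of 66 other genes, which held the remaining integrin chains and further adaptors and regulators. Of the 49 tested, 3 fell and 0 rose (1.54% and 2.59% of all genes tested), with a median log2 fold change of -0.07. At an unadjusted limma p under 0.05, 9 were lower and 3 higher (6.88% and 12.7% of all genes tested). Voom called 8 lower and 0 higher (4.38% and 3.57% of all genes tested). *Ptk2b*, the FAK relative Pyk2, was at 25.4 and 31.1 FPKM in WT and at 16.4 and 12.8 in TG (log2 fold change -0.93, limma adjusted p = 0.0333). *Fblim1*, a filamin-binding LIM protein, was at 36.9 and 51.0 FPKM in WT and at 24.3 and 21.3 in TG (-0.92, adjusted p = 0.0352). *Nedd9*, a relative of p130Cas, was the third, at 24.2 and 28.2 FPKM in WT and 15.0 and 14.8 in TG (-0.79, adjusted p = 0.0457). TG libraries were below WT libraries in all 3 genes, but *Ptk2b* passed in 7 of the 13 alternatives and *Fblim1* and *Nedd9* in 6 each, with adjusted p as high as 0.271, 0.267 and 0.278. *Itga2b*, the platelet alpha chain that pairs with beta3, had the largest log2 fold change of the list, 1.11, from 0.578 and 1.10 FPKM in WT and 1.53 and 3.44 in TG, and did not pass (adjusted p = 0.172).

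The ligands of these receptors were measured in the same libraries. Of 24 ligand genes 21 were tested, 7 fell and 1 rose, and the median log2 fold change was -0.68. Over all genes tested, 1.54% were called lower and 2.59% higher, and the median was 0.07. *Spp1*, which encodes osteopontin, a ligand of the receptor of *Itgav* and *Itgb3*, was at 92.1 and 95.6 FPKM in WT and at 465 and 387 in TG (log2 fold change 2.17, limma adjusted p = 2.6e-04). *Postn*, the matrix protein periostin, was at 82.4 and 90.5 FPKM in WT and at 28.2 and 27.0 in TG (-1.63, adjusted p = 8.6e-04). *Ccn2*, the matricellular growth factor CTGF, was at 605 and 590 FPKM in WT and at 259 and 252 in TG (-1.22, adjusted p = 0.00435). *Spp1* rose where *Itgb3* fell, and *Col1a1*, a chain of the collagen that *Itga11* binds, fell from 867 and 789 FPKM to 407 and 539 (-0.82, adjusted p = 0.0491). *Spp1* and *Postn* passed in each of the 13 alternatives and *Ccn2* in 10, whereas *Col1a1* passed in 4, with an adjusted p as high as 0.291.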

How the data were processed

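RNA-seq was carried out by the authors on 2 WT and 2 TG libraries. Reads were aligned to mm10 with Rsubread, counted per gene and converted by the authors to FPKM, which is the unit of the deposited matrix. DESeq is the tool named in the submitters' processing notes, and its output was not used.

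The main comparison was made with limma 3.58.1 (R 4.3.3) on log2(FPKM + 0.5), using lmFit and then eBayes with trended variances. Fold changes are on that scale, which understates the change of low genes. Genes with a mean of at least 0.5 FPKM were tested. For all 15530 genes above 0, the FPKM of the libraries came out as whole reads. The tolerance was 0.001 reads, wider by the rounding of values given to 7 digits. For 1624 genes the exonic length was needed to settle a multiple. The recovered reads added up to between 99.65% and 99.83% of each total, which describes the recovery and is no mapping rate. These reads were tested by voom, as an alternative, and gave the ratios of reads with exact binomial 95% intervals, which cover counting error only. A test on counts had been the authors' choice, but FPKM was deposited, so limma on the log scale was used.

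Members, lists and tests were chosen with earlier results of these data known. Named genes were the members past the test, the 3 highest of each subgroup, the remaining members by role, and the 3 largest changes of the other adhesion genes and of the ligands. *Nedd9*, *Col1a1* and the marker genes were named after their values were seen. Marker lists covered fibroblasts, smooth muscle, epithelium, endothelium, immune cells, skeletal muscle and Schwann cells. Replicate numbers were not used as pairs in the main test. The deviations of libraries with the same number had r = -0.03, which cannot tell whether the samples were handled as pairs. The paper states that samples of both genotypes were processed in parallel. Reads were also simulated at these depths for 11525 genes, 200 of them changed by a log2 fold change of 2 in either direction. Of these 200, limma recovered 194 with 13 false calls and voom 194 with 6. Every gene was given a dispersion of 0.02, which was not estimated from these libraries. The simulation therefore does not bear on smaller changes or on the error rates of the calls made here.

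The 13 alternatives were voom, the replicate block, quantile normalization, scaling to an equal upper quartile, variances without a trend, a filter at a mean of 1 FPKM or none beyond 0, pseudocounts of 0.1 and 1, and each of the 4 libraries left out. Microscopy data were not analysed here.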

Additional observations from a re-analysis of the deposited data

How the results depend on the processing

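With 2 libraries a genotype, precision is limited, and more calls were lost without a WT library than without a TG library. *Itga11* passed in each of the 13 alternatives, *Tns1* in 12, *Itgb3*, *Tln2* and *Lims2* in 10, *Itgb7* in 9 and *Tln1* in 6, all with an unchanged sign. With each library left out in turn, which leaves a lone sample assumed to vary like the other genotype, integrin chains called lower numbered 1 to 2, those called higher 0 to 1, adaptors called lower 0 to 3 and members lower at the stricter thresholds 0 to 4. The lowest of these counts came without WT 2, or equally without WT 1 except for adaptors called lower (1). Over all genes tested, lower calls also dropped, from 178 to 28 without WT 1, 20 without WT 2, 22 with all genes above 0, 64 under the replicate block and 101 without the variance trend. The median of the integrin chains then ranged from -0.13 to 0.014, turning positive without WT 1, and that of the adaptors from -0.23 to -0.12. With all genes above 0 tested (15530 genes), 1 integrin chain was lower, 0 were higher and 1 adaptor was lower. In that setting 0 members met the stricter thresholds, and the integrin median was -0.040. Over all genes tested, higher calls dropped from 298 to 22 there, 114 under the replicate block and 153 without the variance trend. Counts of all genes at the stricter thresholds were worked out for the main fit only. Without the variance trend, 1 member met the stricter thresholds. Under the replicate block it was also 1, with 0 integrin chains higher and 3 adaptors lower, and *Itgb7* (adjusted p = 0.0592) and *Tln1* (0.0952) were not called. Voom on the recovered reads gave 2 integrin chains and 1 adaptor higher, 6 adaptors lower, and medians of -0.15 for integrin chains and -0.23 for adaptors. It called 4.38% of all genes lower and 3.57% higher. Quantile normalization gave medians of -0.19 and -0.26 and upper-quartile scaling -0.15 and -0.22. These moves came with a shift of the median of all genes by less than 0.1, and beyond the construction of each setting the cause was not tested. Signs turned only in genes that did not pass. *Itgb5* was at -0.13 under quantile normalization, -0.065 under upper-quartile scaling, -0.062 by voom and between -0.080 and 0.084 with a library left out. With a library left out, *Vcl* ranged from -0.12 to 0.030, *Zyx* from -0.13 to 0.30, *Bcar1* from -0.29 to 0.054 and *Src* from -0.092 to 0.28. Quantile normalization gave -0.032 for *Zyx*, -0.012 for *Parva* and -0.00066 for *Src*.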
